A study of Mus musculus with 32 samples.

Results

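The 9 genes described here, of 19938 genes measured, were Ror2, Lgals1, Pde1b, Rasgef1b, Zbtb20, Tenm3, Zfp521, Pcolce2 and Edaradd. They were chosen by their log2 expression values, because expression in mouse brain tumour cells carrying MYC together with Ezh2 or Bmi1 differed from that in cells carrying MYC alone. The values that chose them are therefore given below as a description, with no test. Only comparisons between arrays that did not enter the choice were tested for them. The spread used in those tests was estimated over all arrays, including those that chose the genes. The question asked of them was which differ from MYC cells with both Polycomb genes, and whether any of these differences recurs in tumour cells driven by HRAS.

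All 32 samples were neurosphere cultures, floating colonies of stem-like cells, each hybridised to its own Affymetrix Mouse Gene 1.0 ST array. The parent cells came from the wall of the postnatal lateral ventricle of mice that lacked p53 (strain label B6;129-Trp53tm1Brd), so every group, controls included, was p53-deficient. Oncogenes were added in culture, the cells were transplanted into the brain, and tumour cells expressing the transgene were sorted by flow cytometry and regrown as spheres. Tumours of MYC cells (6 arrays), MYC+Ezh2 cells (5 arrays) and MYC+Bmi1 cells (3 arrays) were labelled primitive neuroectodermal tumours. Tumours of HRAS cells (5 arrays) and HRAS+Bmi1 cells (2 arrays) were labelled gliomas, and those of HRAS+MYC cells (7 arrays) were labelled as resembling atypical teratoid/rhabdoid tumour. The last pair of groups carried the oncogenes one after the other: MYC added to cells of an HRAS glioma (HRAS then MYC, 2 arrays) and HRAS added to cells of a MYC tumour (MYC then HRAS, 2 arrays). The labels do not say which promoter drove the added genes, whether replicates were separate tumours, or how old the recipient animals were, so the p-values measure the spread between samples, which may be technical.

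Polycomb proteins silence genes through chromatin. Ezh2 is the enzyme of Polycomb repressive complex 2 (PRC2) that methylates lysine 27 of histone H3, and Bmi1 is a subunit of Polycomb repressive complex 1 (PRC1), which binds that mark and places ubiquitin on histone H2A. In neural stem cells Bmi1 sustains self-renewal, partly by keeping the Cdkn2a locus silent. The 9 genes are not known parts of either complex. Ror2 is a receptor tyrosine kinase for WNT5A, and Lgals1 encodes galectin-1, a secreted lectin that binds beta-galactosides. Pde1b is a calcium- and calmodulin-dependent phosphodiesterase, Rasgef1b is a guanine nucleotide exchange factor for small GTPases, and Edaradd is the adaptor of the ectodysplasin receptor. Zbtb20 and Zfp521 are zinc finger transcription factors, Tenm3 is a teneurin, a transmembrane protein of neuronal adhesion, and Pcolce2 enhances the cleavage of procollagen.

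The promoter sequences of 4 of the genes are shown because they stand for the 4 patterns found below: higher with both Polycomb genes (Ror2), lower with both but separate from MYC only with Ezh2 (Pde1b), lower with both but separate only with Bmi1 (Tenm3), and higher but separate only with Bmi1 (Edaradd). Each is the 250 bases before a transcription start, 5′ to 3′ on the gene's strand, from RefSeq (build GRCm38.p6), with CpG dinucleotides, the sites of DNA methylation, in capitals. They lie at chr13:53286125-53286374 (minus strand) for Ror2, chr15:103502784-103503033 (plus strand) for Pde1b, chr8:48674691-48674940 (minus strand) for Tenm3, and chr13:12520451-12520700 (minus strand) for Edaradd. For Tenm3 and Edaradd the listed start lies inside the span of the annotated gene, downstream of its outermost end.
Ror2: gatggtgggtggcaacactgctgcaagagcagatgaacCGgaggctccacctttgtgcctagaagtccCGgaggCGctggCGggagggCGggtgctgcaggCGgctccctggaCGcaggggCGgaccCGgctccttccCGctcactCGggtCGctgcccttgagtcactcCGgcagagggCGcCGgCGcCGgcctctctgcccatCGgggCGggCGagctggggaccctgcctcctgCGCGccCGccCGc
Pde1b: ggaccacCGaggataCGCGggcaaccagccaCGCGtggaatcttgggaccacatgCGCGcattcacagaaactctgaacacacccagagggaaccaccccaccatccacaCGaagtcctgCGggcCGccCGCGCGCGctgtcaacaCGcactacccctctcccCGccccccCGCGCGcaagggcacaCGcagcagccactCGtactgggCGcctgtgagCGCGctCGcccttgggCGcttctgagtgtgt
Tenm3: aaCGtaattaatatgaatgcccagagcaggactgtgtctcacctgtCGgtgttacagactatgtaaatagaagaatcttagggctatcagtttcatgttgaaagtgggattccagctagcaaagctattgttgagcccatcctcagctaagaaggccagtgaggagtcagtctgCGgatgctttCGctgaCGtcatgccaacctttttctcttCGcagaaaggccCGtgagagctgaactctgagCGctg
Edaradd: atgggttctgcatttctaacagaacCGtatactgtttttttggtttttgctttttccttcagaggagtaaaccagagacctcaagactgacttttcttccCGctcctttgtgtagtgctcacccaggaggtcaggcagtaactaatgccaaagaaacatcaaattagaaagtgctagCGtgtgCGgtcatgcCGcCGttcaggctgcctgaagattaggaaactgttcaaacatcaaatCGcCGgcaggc

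These stretches hold 24 CpG dinucleotides for Ror2, 26 for Pde1b, 8 for Tenm3 and 8 for Edaradd. In the whole promoter window of 300 bases (250 before and 50 after the start), Ror2 held 32 and Rasgef1b 35, against a median of 15 over 19116 promoters of genes on the array. Pcolce2 held 17, Edaradd 11, Tenm3 10 and Zbtb20 3. Pde1b has 3 listed starts, of which the first held 28 CpG dinucleotides, the second 1 and the third 2. The motif CACGTG, the E-box to which MYC binds, which reads the same on both strands, was in 0 of the 9 windows of the 7 genes listed and in 8.26% of all promoters. The windows listed for these genes thus ran from CpG-poor to CpG-rich. Those with the fewest CpG dinucleotides, of Zbtb20 (3) and of the Pde1b starts with 1 and 2, belong to starts inside the annotated gene. As for Tenm3 and Edaradd, these starts lie downstream of the gene's outermost end. The count of 3 therefore does not describe the outermost promoter of Zbtb20, whose window is not among those listed. Ror2, higher with both Polycomb genes, and the first of the 3 starts of Pde1b, lower in mean with both, were alike in being CpG-rich. The array gives 1 value for Pde1b as a whole, so its difference cannot be assigned to any of these starts. Lgals1 and Zfp521 are not shown. No binding or histone data were used here.

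**Figure D1:**
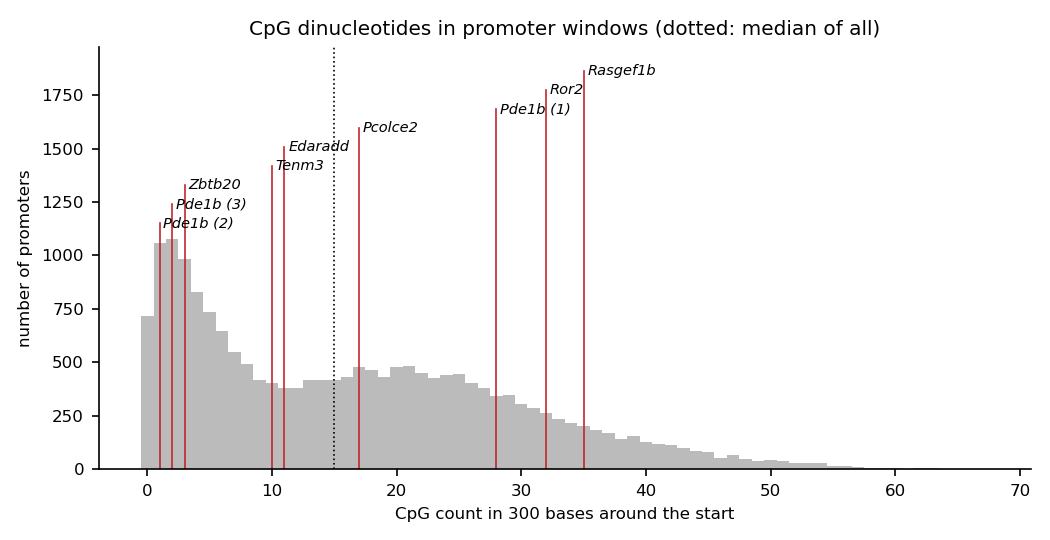
Number of promoters (y axis) by count of CpG dinucleotides in the 300 bases around the start (x axis), with the windows of 7 of the genes marked by red lines whose height carries no value. Rasgef1b (35), Ror2 (32) and the first start of Pde1b (28) lie right of the dotted median of 15, and Zbtb20 (3) and the other starts of Pde1b (1 and 2) lie left of it.

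The targeted genes were checked first. Ezh2 read 12.02 to 12.31 log2 units on the 5 MYC+Ezh2 arrays and 9.72 to 10.90 on the other 27, and its difference from MYC was 1.64 ± 0.155 (SE; adjusted p = 7.96e-07, limma with Benjamini-Hochberg adjustment over all genes). Bmi1 read 10.00 to 10.22 on the 3 MYC+Bmi1 arrays and 9.58 to 10.07 on the 6 MYC arrays, which overlap; the difference of 0.24 ± 0.19 did not pass (adjusted p = 0.668), so its probe set does not check the label of that group. Myc read 6.12 to 8.25 in the groups with added MYC and 10.38 to 12.85 in HRAS and HRAS+Bmi1, so this probe set gives no check of added MYC. On the HRAS+Bmi1 arrays Bmi1 did pass, 0.89 ± 0.225 above HRAS (adjusted p = 0.0152). The arrays overlapped there too, at 10.70 and 10.06 against 9.07 to 10.23 in HRAS. Bmi1 did not pass with the 2 groups fitted alone (adjusted p = 0.199), and without HRAS+Bmi1 replicate 1 the difference was 0.58. Of 6 microglial and macrophage markers, Aif1, Csf1r and Itgam stayed between 3.91 and 4.89 on every array, Ptprc between 4.23 and 5.61 and Cx3cr1 between 5.38 and 6.09, whereas Cd68 ran from 5.39 to 11.21 (median 6.75). The mean over the 6 was 4.75 to 5.79, and that over 6 endothelial and pericyte markers 4.62 to 5.47. Of 7 markers of neural stem and progenitor cells, Nes read 8.27 to 11.75 and Vim 9.16 to 13.86 on all arrays. Msi1 ran from 5.51 to 9.20 and Sox2 from 4.85 to 11.92. Fabp7, Prom1 and Olig2 had medians of 5.37, 5.37 and 5.47 and fell to 4.05, 4.52 and 4.37. Some arrays stood apart from their group: MYC replicates 4 and 5 had the neuronal factor Neurod1 at 10.55 and 10.83 and the stem cell factor Sox2 at 4.85 and 6.62, against 3.39 to 3.85 and 10.74 to 11.58 on the other 4 MYC arrays, and MYC+Bmi1 replicate 1 had Neurod1 at 7.87. Their values are part of every MYC and MYC+Bmi1 mean, and differences that they move by much are given without them too.

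Both Polycomb genes went with higher Ror2 and Lgals1. These were the only 2 of the 9 genes whose arrays lay wholly on one side of all 6 MYC arrays in both groups, above in each case; 0.361% of all genes were separated in the same direction in both, 0.281% above and 0.0802% below. Arrays with Ezh2 were separate from MYC for 5 of the 9 genes (Ror2, Lgals1, Pde1b, Rasgef1b and Zbtb20), as were 0.958% of all genes, 0.632% above and 0.326% below. Arrays with Bmi1 were separate for 6 (Ror2, Lgals1, Tenm3, Zfp521, Pcolce2 and Edaradd), as were 4.09% of all genes, 2.8% above and 1.29% below. The same 5 and 6 genes were past an adjusted p of 0.05, the threshold used throughout, where 0.246% of all genes passed with Ezh2 and 0.15% with Bmi1. Because these contrasts chose the genes, nothing is read from these shares. Both comparisons use the same 6 MYC arrays, so the values of each are set side by side. The sign of the difference from MYC was the same with Ezh2 and with Bmi1 for all 9 genes, and for 73.2% of all genes.

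**Figure D2:**
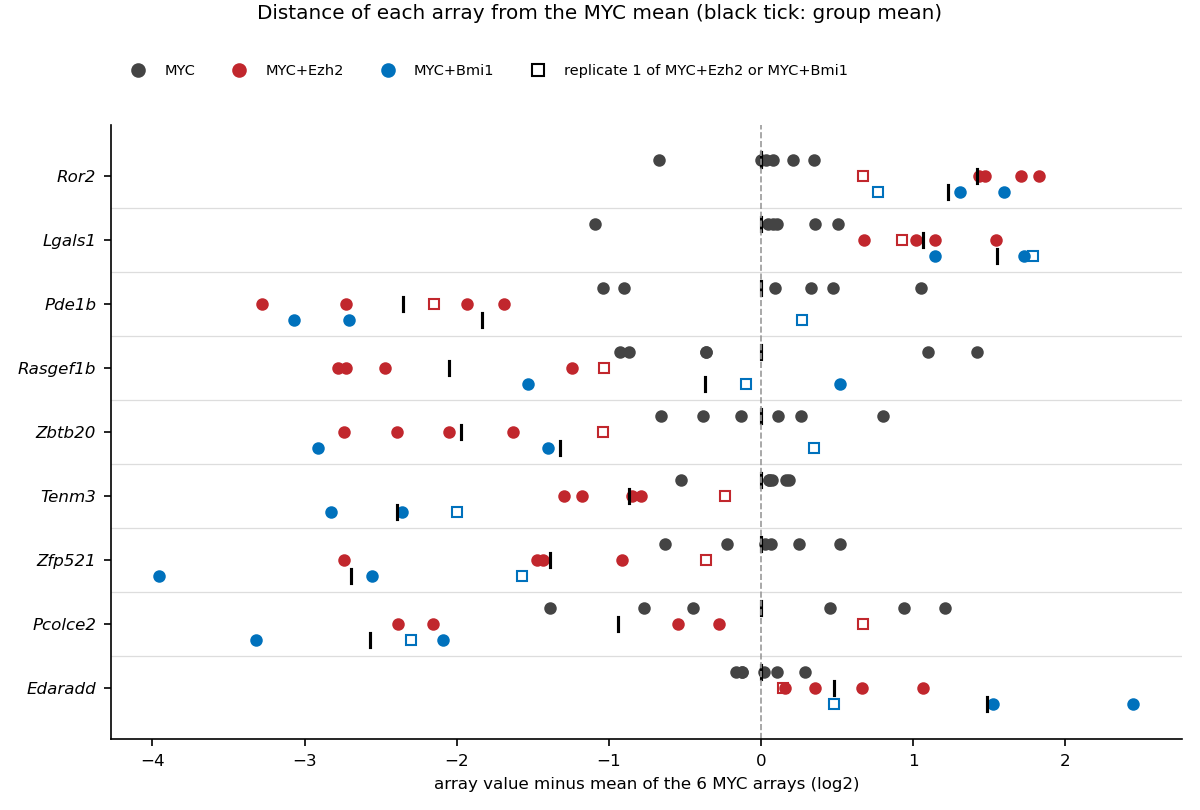
Value of each MYC, MYC+Ezh2 and MYC+Bmi1 array minus the mean of the 6 MYC arrays (x axis, log2) for each gene, with group means as black ticks and replicate 1 of both Polycomb groups as open squares. Ror2 and Lgals1 have every red and blue point right of every grey one, and for Pde1b and Zbtb20 the open blue square lies among the grey points while the other 2 blue points lie left of them.

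Ror2, the WNT5A receptor, read 6.14 at the lowest, 6.86 at the median and 7.16 at the highest on MYC arrays. On MYC+Ezh2 arrays it read 7.48, 8.24, 8.64, 8.52 and 8.28, and on MYC+Bmi1 arrays 7.58, 8.41 and 8.12. Every array with a Polycomb gene was thus above every MYC array, and replicate 1 was the lowest of each Polycomb group. The difference from MYC was 1.42 ± 0.172 with Ezh2, a 2.68-fold higher value, and 1.23 ± 0.201 with Bmi1, or 2.35-fold. Leaving out any one array moved these differences between 1.29 and 1.61 and between 1.04 and 1.46. The groups with Ezh2 and with Bmi1 overlapped, with means 0.19 apart.

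Lgals1, galectin-1, read 8.28, 9.46 and 9.88 at the lowest, median and highest on MYC arrays. It read 10.30, 10.92, 10.52, 10.05 and 10.39 with Ezh2 and 11.16, 10.52 and 11.10 with Bmi1. No array of either group reached down to a MYC array, and the highest values of the 14 arrays without HRAS were in the Bmi1 group. The differences from MYC were 1.06 ± 0.193 (2.09-fold) and 1.56 ± 0.226 (2.94-fold). Lowest for both Ror2 and Lgals1 was MYC replicate 4; without MYC replicates 4 and 5 the differences were 1.34 and 1.15 for Ror2 and 0.92 and 1.41 for Lgals1.

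Among the signalling genes of the cell interior, Pde1b, which degrades cyclic nucleotides when calcium rises, was lower. It read 9.24, 9.0, 8.01, 9.96, 7.87 and 9.38 on MYC arrays and 6.76, 7.22, 6.18, 6.98 and 5.63 with Ezh2. With Bmi1 it read 5.84 and 6.20 on replicates 2 and 3 but 9.18 on replicate 1, which lay among the MYC arrays. The difference was -2.36 ± 0.423 with Ezh2, or 5.12-fold lower, and -1.84 ± 0.494 with Bmi1. Without MYC+Bmi1 replicate 2 the second was -1.22. Without replicate 1 it became -2.89, and Pde1b was then below all MYC arrays with both genes.

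Rasgef1b, the exchange factor, was lower with Ezh2 but not separate from MYC with Bmi1. It ranged from 7.00 to 9.35 on MYC arrays and read 6.90, 5.15, 5.20, 6.69 and 5.46 with Ezh2, a difference of -2.05 ± 0.42. All 5 were below the MYC arrays, although replicates 1 and 4 were close to the lowest of them. With Bmi1 it read 7.83, 8.45 and 6.40, and 2 of these 3 values lay within the MYC range. The difference was -0.37 ± 0.491, and it was 0.21 without MYC+Bmi1 replicate 3 and -0.81 without replicate 2. The mean with Ezh2 minus that with Bmi1 was -1.68.

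Edaradd, the adaptor of the ectodysplasin receptor, was low on MYC arrays, at 5.11 to 5.56. It read 5.42, 6.34, 5.94, 5.43 and 5.63 with Ezh2, of which 3 were above all MYC arrays. With Bmi1 it read 5.75, 6.80 and 7.72, all above them. The difference was 0.48 ± 0.21 with Ezh2 and 1.48 ± 0.245 with Bmi1, and the latter was 1.00 without MYC+Bmi1 replicate 3 and 1.99 without replicate 1. Replicate 1 lay just above the highest MYC array and replicates 2 and 3 stood well above it.

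Both zinc finger factors were lower. Zbtb20 read 7.88 to 9.34 on MYC arrays and 7.50, 6.15, 6.49, 6.91 and 5.80 with Ezh2 (-1.97 ± 0.413), every one below MYC. With Bmi1 it read 8.89, 5.63 and 7.14 (-1.32 ± 0.482), and as for Pde1b replicate 1 lay at the MYC level. The difference was -2.15 without that array and -0.53 without replicate 2. Zfp521 read 7.64 to 8.79 on MYC arrays and 6.70, 4.32 and 5.72 with Bmi1 (-2.69 ± 0.573), all below MYC. With Ezh2 it read 7.91, 7.36, 5.53, 6.84 and 6.80 (-1.38 ± 0.491), and only replicate 1 reached into the MYC range. Without MYC+Bmi1 replicate 1 the Bmi1 difference of Zfp521 was -3.25. As a description with no test, the mean with Ezh2 minus that with Bmi1 was -0.65 for Zbtb20 and 1.31 for Zfp521, and the arrays of the 2 groups overlapped for each.

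The 2 genes of adhesion and matrix, Tenm3 and Pcolce2, were lowest with Bmi1. Tenm3 read 9.23, 9.25, 9.36, 9.34, 9.23 and 8.65 on MYC arrays and 7.18, 6.82 and 6.35 with Bmi1, a difference of -2.39 ± 0.279 (5.26-fold lower). With Ezh2 it read 8.94, 8.33, 7.88, 8.39 and 8.0 (-0.87 ± 0.239), below all MYC arrays but for replicate 1, which lay above MYC replicate 6. The Bmi1 arrays were also below every Ezh2 array, and the Ezh2 value exceeded the Bmi1 value by 1.52 in mean. Pcolce2 varied widely on the MYC arrays, from 6.92 to 9.52. It read 6.01, 4.99 and 6.22 with Bmi1 (-2.57 ± 0.526), all below MYC. With Ezh2 it read 8.98, 5.92, 7.76, 8.03 and 6.15 (-0.94 ± 0.451), so that 3 of 5 arrays lay within the MYC range. The Ezh2 difference was -0.58 without MYC+Ezh2 replicate 2 and -1.55 with array weights. Without MYC replicates 4 and 5 it was -1.24, and that with Bmi1 -2.88.

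How many of the genes were separate from MYC with both Polycomb genes turned on single arrays. The count was 2 when any other single array was left out and differed for only 3 arrays. Without MYC replicate 6 it was 5, with Tenm3, Zfp521 and Edaradd added to Ror2 and Lgals1 (0.833% of all genes). It was 4 without MYC+Ezh2 replicate 1, which adds Tenm3 and Zfp521 (0.617% of all genes), and 4 without MYC+Bmi1 replicate 1, which adds Pde1b and Zbtb20 (0.562%). It remained 2 without MYC replicates 4 and 5 (1.51%). Leaving out an array that lies in the other group's range separates the groups by construction, so these counts describe the arrays. Rasgef1b and Pcolce2 joined in none of these settings.

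Replicate 1 of either Polycomb group also stood nearer to MYC over all genes. Its profile, taken as deviations from the mean of the 14 arrays without HRAS, correlated with that of the MYC group at r = 0.131 for Ezh2 and 0.112 for Bmi1. The other 4 Ezh2 arrays gave -0.583 to -0.396 and the other 2 Bmi1 arrays -0.592 and -0.457 (across genes, which are not independent). The MYC arrays themselves gave -0.219 to 0.136 with the rest of their group. The progenitor factor Olig2 read 9.59 on MYC+Bmi1 replicate 1, against 4.84 and 6.90 on replicates 2 and 3. With Ezh2 it read 9.44, 9.20, 6.5, 9.37 and 5.61, so that there replicate 1 did not stand apart from replicates 2 and 4. The summed level of the markers of neural stem cells, as a mean over 7 genes, was 9.45 on MYC+Ezh2 replicate 1 and 9.34 on MYC+Bmi1 replicate 1, and 7.89 to 9.16 on the others. On MYC arrays it was 9.66 to 10.13, apart from 6.76 and 7.78 on replicates 4 and 5. The neuronal markers ran from 6.86 to 9.36 on MYC, 6.97 to 8.55 on MYC+Ezh2 and 7.38 to 9.12 on MYC+Bmi1 arrays, and the astrocyte markers from 5.62 to 8.26, 5.68 to 6.29 and 5.87 to 6.17. The oligodendrocyte markers, as a mean over 4 genes, were 8.26 to 9.34 on MYC arrays but 6.55 and 6.27 on replicates 4 and 5. They were 7.35 to 8.47 on MYC+Ezh2 and 7.39 to 8.55 on MYC+Bmi1 arrays, and replicate 1 was the highest of each Polycomb group. The part of these in the differences of the 9 genes was not tested, and in bulk RNA fewer cells of a type and less RNA per cell cannot be told apart.

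**Figure D3:**
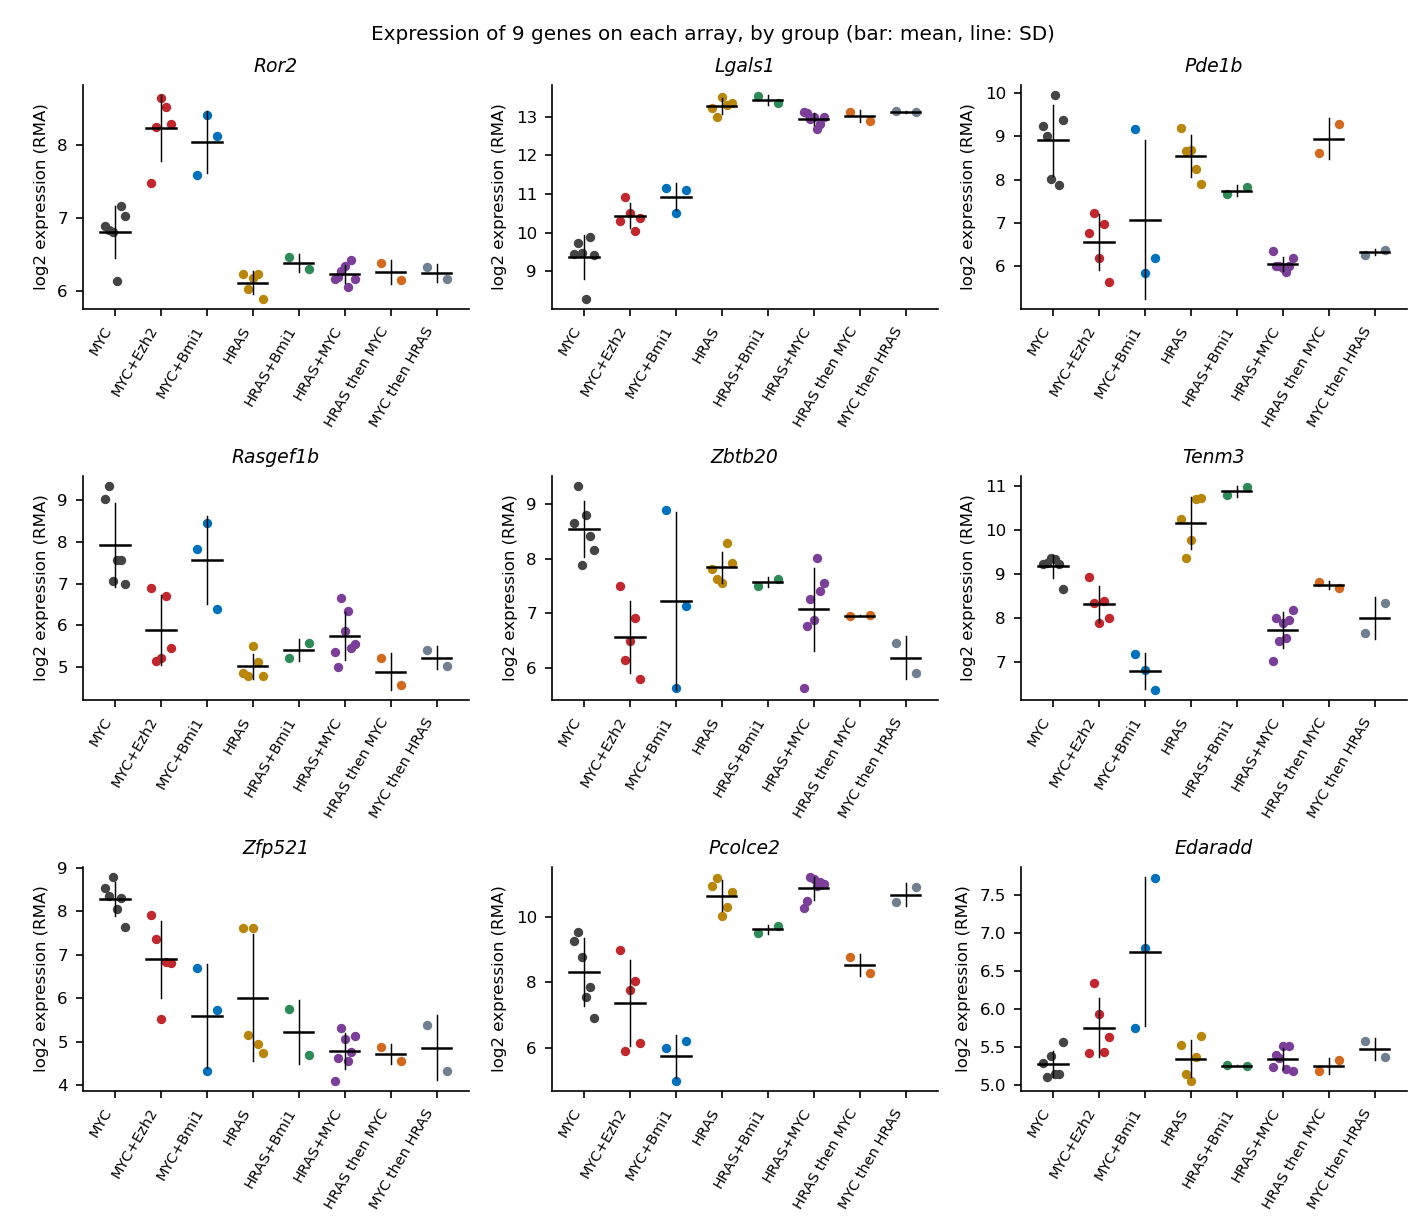
Log2 expression (y axis) of each gene on every array of the 8 groups (points), with the group mean as a bar and its SD as a vertical line. Ror2 stays between 5.89 and 6.47 on the 18 arrays that carry HRAS, whereas Lgals1 there lies between 12.68 and 13.53, above all other arrays.

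Across all 8 groups the 2 genes that were higher with both Polycomb genes went opposite ways. Ror2 was highest in MYC+Ezh2 (8.23 ± 0.452, SD, n = 5), then MYC+Bmi1 (8.04 ± 0.421, n = 3), then MYC (6.81 ± 0.354, n = 6), and the 5 groups with HRAS had means of 6.12 to 6.39. All 5 groups below MYC overlapped their neighbours in that order. Lgals1 was highest in the groups with HRAS, where means ran from 12.95 to 13.44 and the 18 arrays from 12.68 to 13.53, all above the 14 arrays without HRAS at 8.28 to 11.16. Of all genes, 2.61% had the arrays with HRAS separate from the rest, 1.74% above. The order of Lgals1 without HRAS was MYC+Bmi1, MYC+Ezh2, MYC, of which the first pair overlapped. None of the other 8 genes separated all arrays with HRAS from all arrays without it.

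Rasgef1b and Zfp521 were, like Ror2, mostly low with HRAS: their medians were 5.28 and 4.92 on the 18 arrays with HRAS and 7.03 and 7.50 on the 14 without. Pcolce2 was high with HRAS, with a median of 10.61 against 7.65. Zfp521 split the HRAS group itself, at 7.61, 5.14, 7.62, 4.95 and 4.74, so that 2 arrays lay just below the lowest MYC array (7.64) and 3 were low. Edaradd stayed between 5.05 and 5.65 on all arrays with HRAS, near the MYC level. Its values above that range all came from MYC+Ezh2 and MYC+Bmi1 arrays. Neighbouring groups in the order of mean levels overlapped at all steps for Rasgef1b, Zbtb20, Zfp521 and Edaradd.

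The comparison of HRAS+Bmi1 with HRAS asks whether Bmi1 went with the same changes when the other oncogene was HRAS, on arrays that had no part in choosing the genes. None of the 9 genes passed in limma, where 5.91% of all genes did, and 1 of 9 had an unadjusted p under 0.05, as did 18.2% of all genes. Ror2 read 6.47 and 6.30 against 5.89 to 6.24, so both arrays were above HRAS, by a mean difference of 0.27 with a 95% interval of -0.22 to 0.76 (adjusted p = 0.655). Lgals1 differed by 0.16 (interval -0.39 to 0.71, adjusted p = 0.863). Tenm3, for which the Bmi1 difference in MYC cells was -2.39, read 10.80 and 10.98 with Bmi1 and 9.36 to 10.74 without in HRAS cells. Both Bmi1 arrays were thus above all HRAS arrays, with a difference of 0.72 (interval 0.05 to 1.4, adjusted p = 0.233). Edaradd read 5.25 in mean against 5.35, a difference of -0.10 (interval -0.69 to 0.50, adjusted p = 0.942). For Pde1b (-0.79, interval -1.99 to 0.41), Zbtb20 (-0.28, interval -1.45 to 0.89), Zfp521 (-0.79, interval -2.18 to 0.60) and Pcolce2 (-1.03, interval -2.30 to 0.25) the 2 arrays leave wide intervals. Both Bmi1 arrays were below all HRAS arrays for Pde1b (7.66 and 7.83 against 7.91 at the lowest) and Pcolce2 (9.51 and 9.71 against 10.03). The means of both genes were also lower with Bmi1 in MYC cells. Rasgef1b differed by 0.39 (interval -0.81 to 1.58). The share of all genes separated in this comparison was not counted, so nothing is read from which of the 9 genes were separated. With each array centred on its median, the share of genes higher among all genes passing was 35.0% in place of 48.6%, and none of the signs named here changed. Whether Bmi1 went with a different change in HRAS than in MYC cells was not tested, since the MYC arrays chose the genes.

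Adding MYC together with HRAS went with lower Pde1b and Tenm3, the 2 of the 9 genes that passed between HRAS+MYC and HRAS (24.7% of all genes passed, 13.0% lower; 3 of the 9 had an unadjusted p under 0.05, as did 34.9% of all). Pde1b read 5.86 to 6.34 on the 7 HRAS+MYC arrays, with a median of 6.01, against 9.19, 8.67, 8.68, 8.24 and 7.91 on the HRAS arrays. It fell by 2.48 ± 0.409 (adjusted p = 4.63e-05) to a range that lies inside that described for MYC+Ezh2, and it was lower in 7 of 7 arrays. Tenm3 read 7.01 to 8.18, with a median of 7.89, against 10.26, 9.36, 9.77, 10.71 and 10.74, and fell by 2.45 ± 0.231 (adjusted p = 1.19e-08), again in 7 of 7 arrays. Neither pair of groups overlapped. Zbtb20 did not pass (-0.77 ± 0.399, adjusted p = 0.171), nor in any of 19 alternatives, 1 of which averaged its probe sets (lowest adjusted p = 0.06). Its probe set that was not used read 4.671 to 7.867 on HRAS+MYC and 7.865 to 8.751 on HRAS arrays. That probe set was not tested alone. Zfp521 did not pass (-1.22 ± 0.474, adjusted p = 0.0602); it passed without HRAS replicate 2, 4 or 5 (adjusted p = 0.0372, 0.0327 and 0.0232), the 3 HRAS arrays where it was low. Ror2 differed by 0.11 (interval -0.23 to 0.45) and Lgals1 by -0.33 (interval -0.71 to 0.06), neither of which passed. Centring, that is subtracting each array's median from all its values, turned the share of genes higher among all genes passing from 47.2% to 60.3% in this comparison, while Pde1b and Tenm3 still passed, at -2.41 and -2.37.

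When MYC was added after HRAS, the same genes took other levels. Of the 9 genes 2 passed against HRAS (12.5% of all genes did, 6.21% lower) and 3 against HRAS+MYC (12.1%, of which 6.89% higher and 5.17% lower). Pde1b read 8.61 and 9.28, within or above the HRAS range, and was 2.89 ± 0.56 above HRAS+MYC (adjusted p = 0.000762), that is 7.41-fold. Tenm3 read 8.82 and 8.69, between both groups. It fell by 1.42 ± 0.33 from HRAS (adjusted p = 0.00458) and exceeded HRAS+MYC by 1.03 ± 0.316 (adjusted p = 0.0309). Pcolce2 read 8.76 and 8.28, below every HRAS array (10.03 to 11.18) and every HRAS+MYC array (10.27 to 11.20). It fell by 2.12 ± 0.622 from HRAS (adjusted p = 0.0232) and differed from HRAS+MYC by -2.34 ± 0.597 (adjusted p = 0.0088). These calls rest on 2 arrays: without HRAS then MYC replicate 2 the adjusted p of Pde1b against HRAS+MYC became 0.0642, that of Tenm3 0.0992 against HRAS and 0.201 against HRAS+MYC, and that of Pcolce2 0.26 and 0.188. Without replicate 1 Tenm3 had 0.23 against HRAS+MYC, and Pcolce2 0.1 and 0.0612. Centring moved every difference from HRAS by 0.15 and those from HRAS+MYC by 0.08, with the share higher among genes passing going from 50.3% to 73.2% and from 57.1% to 68.5%. All 5 calls held with it.

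The opposite order gave no such difference. Between MYC then HRAS and HRAS+MYC none of the 9 genes passed and none had an unadjusted p under 0.05, where 0.11% of all genes passed in the same limma test and 7.37% had such a p. Pde1b read 6.27 and 6.37 in MYC then HRAS, Tenm3 7.66 and 8.33, and Pcolce2 10.43 and 10.91, in or next to the HRAS+MYC range. The difference was 0.27 for Pde1b (interval -0.88 to 1.41), 0.27 for Tenm3 (interval -0.38 to 0.92) and -0.19 for Pcolce2 (interval -1.41 to 1.04). The intervals for Pde1b and Pcolce2 are wide enough to hold changes of over 1 log2 unit. Zbtb20, at 6.46 and 5.91 against 5.62 to 8.02, had the smallest adjusted p, 0.802.

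**Figure D4:**
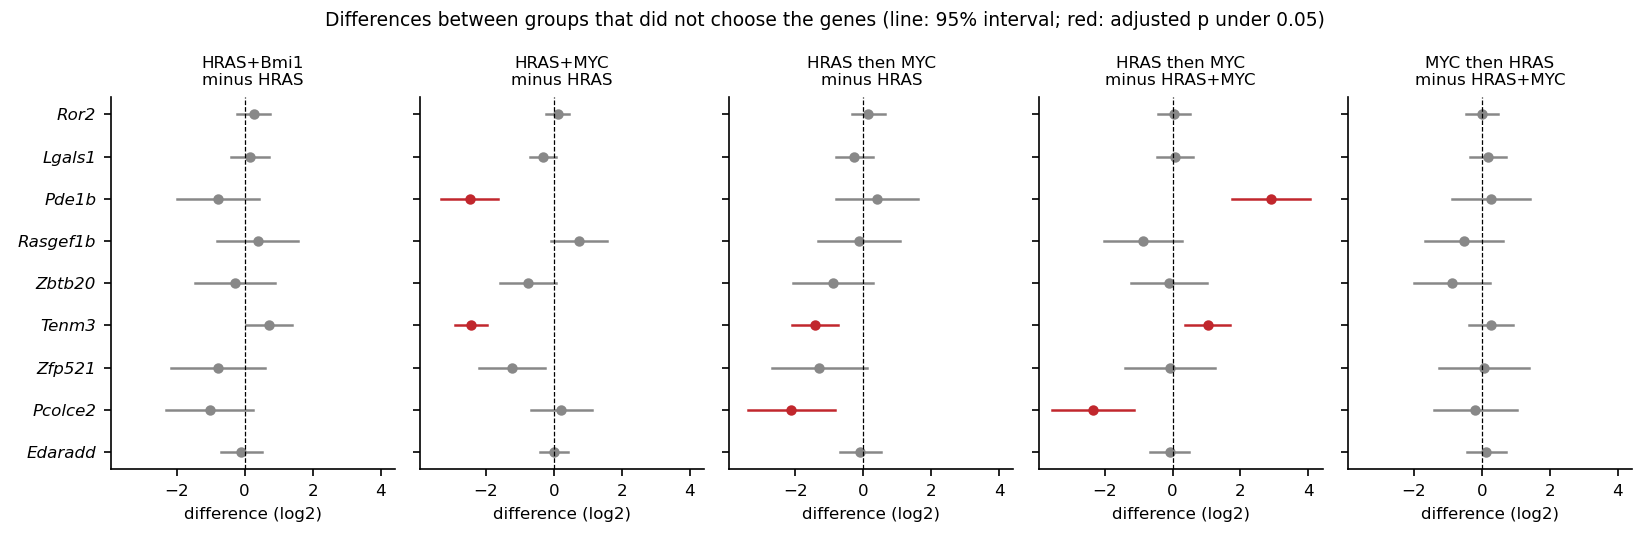
Difference between groups (x axis, log2) with its 95% interval for each of the 9 genes in the 5 comparisons whose arrays did not choose them, with those at adjusted p under 0.05 in red. Pde1b and Tenm3 are red in HRAS+MYC minus HRAS, Tenm3 and Pcolce2 in HRAS then MYC minus HRAS, all 3 in HRAS then MYC minus HRAS+MYC, and none in the remaining 2.

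The families and pathways of the 9 genes were followed through 12 lists with 154 measured genes, 145 of them outside the 9. In MYC+Ezh2 against MYC 1 of the 145 rose, Ezh2 itself, and none fell (0.69% called, against 0.246% of all genes). An unadjusted p under 0.05 was reached by 23, and by 10.8% of all genes. With Bmi1 1 rose, Flrt1, and none fell (0.69%, against 0.15% of all genes). There 21 had an unadjusted p under 0.05, as did 11.6% of all genes. Flrt1 is an adhesion protein whose family binds the latrophilin receptors of teneurins; it was 0.87 ± 0.178 higher (adjusted p = 0.0369). This call was lost in 6 of 18 alternatives: with the 2 groups fitted alone (adjusted p = 0.615), without MYC+Bmi1 replicate 2 (0.189) or 3 (0.219), and without MYC replicate 1 (0.0799), 2 (0.0718) or 3 (0.0673). In the same list of 10 the other teneurins did not pass: the differences with Bmi1 were 0.29 for Tenm1, 0.66 for Tenm2 and 0.38 for Tenm4, against -2.39 for Tenm3.

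No close relative of the 9 genes passed with either Polycomb gene. The other ROR receptor, Ror1, differed by 0.11 with Ezh2 and 0.20 with Bmi1. Its ligand Wnt5a differed by 1.09 ± 0.557 and 1.85 ± 0.65, in the direction of Ror2, but with adjusted p-values of 0.489 and 0.248; without MYC replicates 4 and 5 the differences were 0.17 and 0.93. Lgals3 differed by 0.04 and 0.30. Pde1a (0.79 and 0.15) and Pde1c (0.08 and -0.66) did not pass, against -2.36 and -1.84 for Pde1b. Rasgef1a differed by -0.39 and 0.18, Rasgef1c by -0.18 and -0.24, Zbtb45 by 0.16 and -0.13, and Zfp423, the paralogue of Zfp521, by -0.54 and -0.02. Zfp423 read 7.94 and 8.58 on MYC replicates 4 and 5, and without these its differences were 0.12 and 0.64, both signs turned. The sign of Rasgef1a with Ezh2 also turned without them, to 0.20, and its Bmi1 difference was 0.77. So did the signs of Ror1 with both and of Lgals3 and Rasgef1c with Ezh2, to values between -0.12 and 0.03. Pcolce differed by -0.04 and 0.30, and the ectodysplasin receptor Edar by 0.49 and 0.31.

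Of the 11 PRC2 subunits measured, Ezh2 alone passed with added Ezh2, with a median difference of 0.05 over the list against 0.02 over all genes. With Bmi1 in MYC cells none passed (1 at an unadjusted p under 0.05) and the median was -0.05. None of the 18 PRC1 subunits measured passed in either (1 and 3 at an unadjusted p under 0.05), with medians of -0.04 and -0.08. In HRAS cells with added Bmi1, 5 of these 29 subunits passed, Bmi1 itself among them, where 5.91% of all genes did; whether this differs from MYC cells was not tested. Ezh1, the other methyltransferase of PRC2, fell by 1.38 ± 0.267 (adjusted p = 0.00174), Phf1 by 0.88 and the PRC1 member Scmh1 by 0.90, whereas Ezh2 rose by 0.70 (adjusted p = 0.0491). These calls rest on 2 arrays: without HRAS+Bmi1 replicate 1 the adjusted p became 0.0617 for Ezh1, 0.348 for Scmh1, 0.497 for Ezh2 and 0.52 for Bmi1. That of Ezh2 was also 0.098 with the arrays centred on their medians and 0.0731 with the replicate block, and its call was lost in 8 of 14 alternatives. The 145 listed genes had 6 rises and 9 falls there (10.3% called, against 5.91% of all genes). Among 10 growth regulators known as Polycomb targets, none passed with Ezh2 or with Bmi1 in MYC cells (3 each at an unadjusted p under 0.05). The closest was the cell cycle inhibitor Cdkn2c with Bmi1 (-1.94 ± 0.419, adjusted p = 0.0503), which was past the threshold in 8 of 18 alternatives. Without MYC replicates 4 and 5 it was -2.60 (adjusted p = 6.12e-05), and Cdkn2c then also passed with Ezh2 (-1.27, adjusted p = 0.0198, against -0.61 and 0.569 with all arrays). Cdkn2a fell by 0.95 with Bmi1 in HRAS cells (adjusted p = 0.0063; 0.23 without HRAS+Bmi1 replicate 1) and differed by 0.24 in MYC cells (adjusted p = 0.642).

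**Figure D5:**
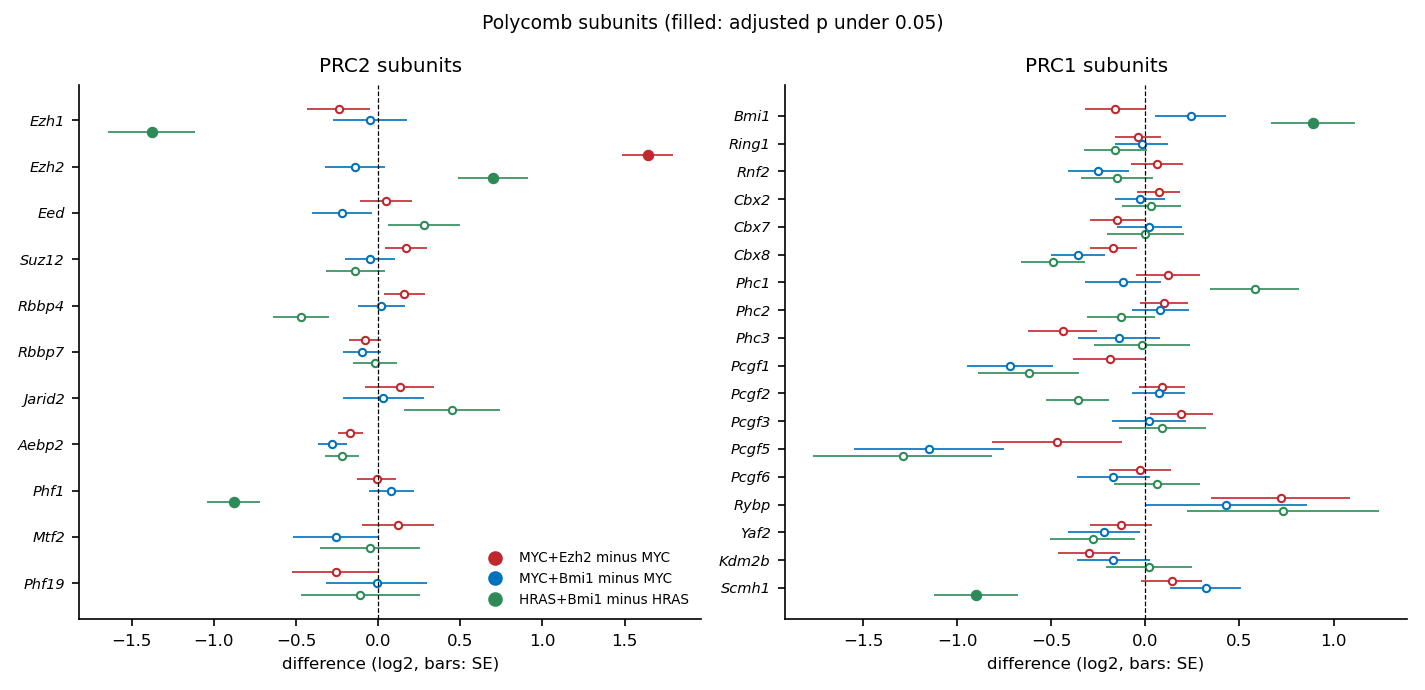
Difference of each measured PRC2 and PRC1 subunit (x axis, log2, bars of 1 SE) with Ezh2 in MYC cells (red), Bmi1 in MYC cells (blue) and Bmi1 in HRAS cells (green), filled where the adjusted p was under 0.05. Ezh2 is the sole filled red point, no blue point is filled, and Ezh1, Ezh2, Phf1, Bmi1 and Scmh1 are filled green.

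For each gene the 2 others most alike across the 32 arrays, by Pearson's r, describe the company it kept. These r are across arrays that share groups, so they follow the differences between groups. Slit1 (0.94) and Dlx5 (0.92), a guidance ligand and a homeobox factor of interneurons, were most like Ror2, and Dlx5 was 3.09 higher with Ezh2 and 2.87 higher with Bmi1 than in MYC. Lgals1 was matched by Sdc4 and Wwtr1 (0.95 each), which were 0.11 and 0.14 higher with Ezh2, 0.62 and 0.45 higher with Bmi1, and 3.37 and 3.56 higher in HRAS than in MYC cells. Tenm3 was most like Rorb (0.87) and Shisa4 (0.83), Pde1b like Sspn (0.82) and Ppp1r1a (0.80), and Rasgef1b like Car14 and Arhgef10l (0.83 each). Zbtb20 was most like Zhx2 (0.82) and Rbl2 (0.75), and Zfp521 like Nfia, a factor of gliogenesis, and Fam217b (0.86 each). Pcolce2 was most like Eps8 and Specc1 (0.91 each), and Edaradd like Sln (0.86) and Vipr2 (0.82).

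Among themselves, over the 14 arrays without HRAS, Tenm3 and Zfp521 ran together (r = 0.89), as did Pde1b and Zbtb20 (0.88), while Ror2 ran against Pde1b (-0.85) and Zbtb20 (-0.84) and Edaradd against Tenm3 (-0.87). Over all 32 arrays the first of these was 0.26 and the second 0.68. Other pairs were Zbtb20 with Zfp521 (0.69), Pde1b with Zfp521 (0.66), Rasgef1b with Zbtb20 (0.65) and Pde1b with Rasgef1b (0.56), all over the 14 arrays. Since these arrays chose the genes, the correlations are a description of the choice as well.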

How the data were processed

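RNA of 32 tumour-derived neurosphere cultures was measured on 1 array each. The deposited values are log2 expression per probe set, for which the submitters' processing notes name RMA (robust multi-array average) and Affymetrix Expression Console 1.0. RMA forces a common distribution on the arrays, which hides any shift shared by most genes of a group and understates changes of weak probe sets. Depth has no counterpart here; the number of arrays limits the precision.

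Of 35557 probe sets, the 21789 with 1 gene symbol in the platform annotation gave 19938 genes, each by its probe set with the highest mean. Sequences and positions came from RefSeq tables (GRCm38.p6). Arrays were assigned to the 8 groups from their titles, and all were fitted together, with 1 coefficient per group, in limma 3.58.1 (R 4.3.3; eBayes, 2-sided). All adjusted p-values use Benjamini-Hochberg over the 19938 genes, with 0.05 as threshold, and standard errors and 95% intervals come from this fit. The 9 members, the lists and the alternatives were chosen with earlier results of these data known. Besides the 9 genes, the rule named the added genes, 2 most alike genes each, close paralogues, and list genes that passed; Wnt5a, Cdkn2c, Cdkn2a and the subunits named in HRAS cells were chosen after their values were seen. The alternatives averaged probe sets, kept only genes above 6 on at least 2 arrays, changed the variance model, weighted or centred arrays, added a replicate block, fitted 2 groups alone and left out arrays. In data simulated with 200 changed genes, 82% of changes of 1 log2 unit were recovered for MYC+Ezh2 against MYC, 77% for MYC+Bmi1 against MYC and 66.5% for HRAS+Bmi1 against HRAS. The simulated noise had 1 spread per gene for all arrays and no array that stood apart. The real arrays differ from that setting, so recovery in them may be lower.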

Additional observations from a re-analysis of the deposited data

Results flagged for a closer look

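Of 36 groups of 4 or more arrays examined over the 9 genes, 3 had an array far from the others by Dixon's test, which chance gives in about 1 in 20 groups. Ror2 at 6.14 and Lgals1 at 8.28 were both lowest on MYC replicate 4, the array with high Neurod1 and low Sox2, and Tenm3 at 8.65 was lowest on MYC replicate 6.

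The change with MYC in HRAS cells differed between consecutive and simultaneous addition for 3 genes, tested directly as HRAS then MYC minus HRAS+MYC. The difference was 2.89 for Pde1b, 1.03 for Tenm3 and -2.34 for Pcolce2.

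In MYC cells every Bmi1 array moved one way from the control mean and in HRAS cells every Bmi1 array moved the other way for 2 genes. By the same measure Ror2, Lgals1, Zfp521 and Pcolce2 moved the same way in both. This measure takes differences of any size, such as 0.16 for Lgals1 in HRAS cells. The share of all genes that meet it was not counted, so nothing is read from these counts. The Bmi1 difference in MYC cells minus that in HRAS cells was -3.12 for Tenm3 and 1.58 for Edaradd, and it was not tested. The MYC part of each is a value that chose the genes. In HRAS cells Edaradd differed by only -0.10, at 5.26 and 5.25 against a mean of 5.35.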

How the results depend on the processing

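Over the alternatives tried, 1053 values of the 9 genes were recomputed. Of these, 1037 kept their direction and their side of the threshold or, for the untested differences of the Polycomb groups from MYC, moved by less than the spread between arrays. In the comparisons tested for the 9 genes, another 10 lost the threshold, 6 gained it and 0 turned in sign after passing. The side of the threshold was not followed for the differences of the Polycomb groups from MYC. With the 2 groups fitted alone, 1 gene passed with Ezh2, Ezh2 itself, so none of the 9 did. With Bmi1 1 gene passed, which was lower, so at most 1 of the 9 did. Rasgef1b with Bmi1, which had not passed, ran from -0.81 to 0.21 when single arrays were left out. Gains not named above were Tenm3 in HRAS+Bmi1 with array weights (adjusted p = 0.0367), Lgals1 in HRAS+MYC fitted with HRAS alone (0.0401) and Zfp521 there with the filter on low values (0.044). A loss not named above was Tenm3 in HRAS then MYC against HRAS fitted alone (0.07), and against HRAS+MYC without HRAS+MYC replicate 1 (0.0509).

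Counts over all genes moved more. With MYC+Ezh2 against MYC 49 genes passed, 554 with array weights, 9 with the replicate block, 1 with the 2 groups alone, 202 without MYC replicates 4 and 5, and 264 without those and MYC+Bmi1 replicate 1. Single arrays left out gave 4 to 233, the lowest without MYC+Ezh2 replicate 3 and the highest without replicate 1, and each array but MYC replicate 6 moved the count by over 1.5 times. With MYC+Bmi1 against MYC 30 passed, 61 with array weights, 1 with the 2 groups alone, and 245 and 627 without the same arrays. Single arrays left out gave 9 to 234, without MYC+Bmi1 replicate 3 and 1, and MYC replicates 1, 4 and 6 also moved the count by over 1.5 times. For HRAS+Bmi1 against HRAS the counts were 1178, 3460 with weights and 533 alone, with 199 to 1801 when single arrays were left out (without HRAS+Bmi1 replicate 1 and HRAS replicate 3; 324 without HRAS+Bmi1 replicate 2). For HRAS then MYC against HRAS they were 2495, 4384 with weights and 983 alone, with 544 to 2667, and against HRAS+MYC 2405 and 5085 with weights, with 605 to 2444. Both lows came without HRAS then MYC replicate 2, and replicate 1 left out gave 1110 and 1065. MYC then HRAS against HRAS+MYC gave 22, 150 with weights, and 15 to 43, with 43 without HRAS+MYC replicate 1 and 40 without replicate 2. HRAS+MYC against HRAS gave 4921, with 4152 to 4779. The cause was not tested.

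The count of genes separate from MYC with both Polycomb genes was 2 to 5 over single arrays left out. The alternatives for the listed genes outside the 9 were added after the data were seen. In other settings so added the count was 4 without MYC replicates 4 and 5 and MYC+Bmi1 replicate 1, and 6 without replicate 1 of both Polycomb groups. Same-numbered arrays did not deviate together throughout, with correlations from -0.301 to 0.343. Against MYC they were 0.343, -0.135, -0.26, -0.149 and 0.3 for MYC+Ezh2 replicates 1 to 5. For MYC+Bmi1 they were 0.227, -0.236 and 0.036. The numbers therefore show no pairing over all replicates, and a feature shared by replicate 1 was not tested. With the block 20 genes passed for MYC+Bmi1 against MYC and 881 for HRAS+Bmi1 against HRAS. For MYC+Ezh2 against MYC 9 passed, 2 of them lower, so Pde1b, Rasgef1b and Zbtb20 did not all stay past the threshold. No call of the 9 genes changed in the comparisons tested for them.

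The tests of groups with 2 arrays assume that these vary like the other groups, p53 was absent in every group, and protein, histone marks and binding were not measured.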
